A study of Mus musculus with 16 samples.

Results

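Megakaryocyte and platelet genes were described in 2 populations of mouse blood progenitors labelled WT or Tet2KO. The group holds 9 genes, taken by symbol from the 23420 symbols that each of the authors' deposited tables lists, and all 9 were found in both tables. They are Mmrn1, Vwf, Pf4 and Selp, which encode proteins stored in or displayed from platelet granules, Itga2b, Itgb3 and Gp1bb, which encode platelet surface receptors, F2r, which encodes a thrombin receptor used by human platelets and by other cells in mice, and Plek, which encodes a signalling protein. No measured value entered the choice by rule, but the list was drawn up with earlier results of these tables known.

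Multipotent progenitors (MPP) were sorted from bone marrow as lineage-negative, cKit+, Sca1+, CD48+, CD150- cells, and granulocyte-monocyte progenitors (GMP) as lineage-negative, cKit+, Sca1-, CD150-, CD16/32+ cells. Each population came from 4 mice labelled WT, genotype Tet2fl/fl, and from 4 mice labelled Tet2KO, genotype Tet2-/-, all at 40 weeks of age. The control mice therefore carry floxed Tet2 alleles, and the agent that deleted Tet2 is not given in the sources used here. In each genotype 3 mice gave both populations. RNA was amplified from 2 ng per library before sequencing of the 16 libraries.

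Megakaryocytes are large bone marrow cells that mature under thrombopoietin and shed platelets into the blood. Their alpha granules hold adhesive proteins and chemokines, among them von Willebrand factor and platelet factor 4, and the membrane carries P-selectin once granules are released. Integrin alpha-IIb-beta-3 binds fibrinogen, and the GPIb-IX-V complex binds von Willebrand factor. Several of these genes are also transcribed at low level in stem cells and early progenitors that are primed towards the megakaryocyte lineage, and Vwf, Selp and Mmrn1 are endothelial genes as well. TET2 oxidizes 5-methylcytosine in DNA.

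The tables give 1 mean per population and 1 log2 fold change of Tet2KO over WT per gene with its standard error (SE), so values per library cannot be shown here. The means are in normalized counts. They summed to 9436210 in MPP and 11033900 in GMP, and the depth of single libraries is unknown. Tet2 itself, on chromosome 3 from 133463679 to 133545139 on the minus strand (GENCODE M21, mm10), had a log2 fold change of 0.44 (SE 0.0992) in MPP and 0.35 (SE 0.0748) in GMP in the authors' deposited tables, so the transcript was higher in the libraries labelled Tet2KO. Those values cover the whole gene, whatever part was deleted, and check nothing about the labels. Directions below are those of the libraries labelled Tet2KO, as the authors named the tables.

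The 9 genes spanned a wide range of levels in both populations. Levels are given in ppm, the share of a gene in the sum of all means of its table. Plek was the most abundant member per length, at 72.1 ppm per kb of exon in MPP and 29.3 in GMP. F2r followed at 32.5 and 9.32, and Selp at 23.3 and 7.86 in MPP and GMP. Mmrn1 stood at 7.78 in MPP and 0.791 in GMP, Itga2b at 5.28 and 4.63, Itgb3 at 4.71 and 5.46, and Pf4 at 1.69 and 4.68, on the same scale. The lowest members were Vwf at 0.418 and 0.378 and Gp1bb at 0.142 and 0.221. Other genes of mature megakaryocytes and platelets were uneven. Ppbp, the platelet basic protein, had a mean of 3.88 normalized counts in MPP and 1.86 in GMP, and Tubb1, the platelet beta-tubulin, 3.25 and 1.56. Treml1 (5.55 and 1.89) and the collagen receptor gene Gp6 (1.03 and 0.538) were also under the authors' minimum mean of 10 in both populations. The von Willebrand factor receptor gene Gp1ba (79.97 and 61.7), the platelet glycoprotein genes Gp5 (36.2 and 18.4) and Gp9 (19.4 and 10.6) and the ATP receptor gene P2rx1 (111 and 86.4) lay above it. The 9 genes are described as transcripts in sorted progenitors, and the number of megakaryocytes was not measured. In sorted pools a smaller number of cells of a type and less RNA per cell cannot be told apart.

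The order of the levels differed between the populations at Mmrn1 and Pf4. As a share of the summed means, Mmrn1 was 9.85-fold higher in MPP (45.7 ppm) than in GMP (4.64 ppm). F2r was 3.48-fold, Selp 2.97-fold and Plek 2.46-fold higher in MPP. Pf4 ran the other way, at 1.22 ppm in MPP and 3.37 ppm in GMP, 2.77-fold higher in GMP. Each mean pools WT and Tet2KO libraries, so these ratios also carry the changes by genotype and are not ratios between WT populations. For Pf4 those changes ran in opposite directions, with log2 fold changes of -0.92 in MPP and 1.35 in GMP. For Mmrn1 the value in GMP was 2.06. Vwf, Itga2b and Itgb3 differed by 1.11-fold, 1.14-fold and 1.16-fold between the populations. These ratios have no test, because the tables were normalized separately and give no spread of the level over mice, so neighbours in the order such as Itga2b and Itgb3 cannot be ranked.

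**Figure D1:**
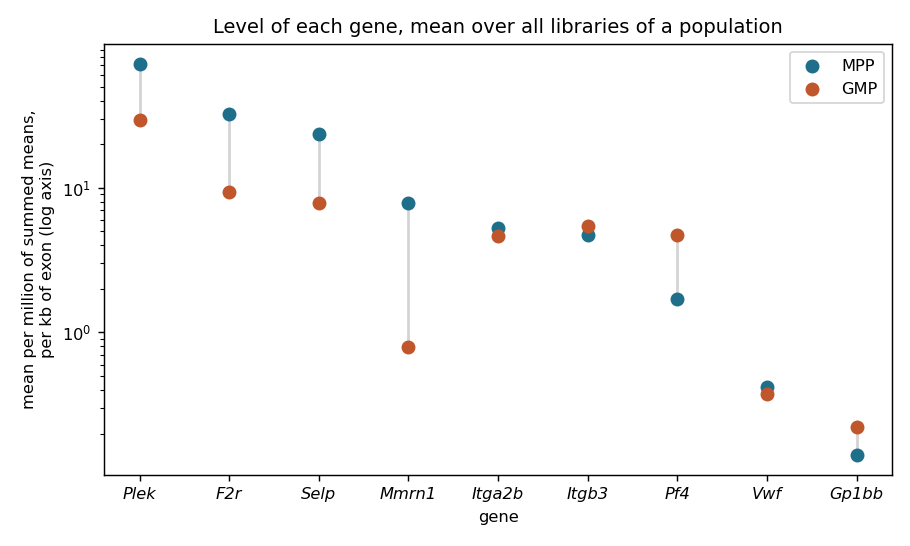
Level of the 9 genes in MPP and GMP on a log axis, as the mean over all libraries of a population in ppm of the summed means and per kb of exon; no error is shown, since the tables give none for a level. Mmrn1 stands at 7.78 in MPP and 0.791 in GMP and Pf4 at 1.69 and 4.68, while the points of Vwf, Itga2b and Itgb3 lie close together.

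In GMP, 4 members rose in libraries labelled Tet2KO: the granule genes Mmrn1, Vwf and Pf4 and the thrombin receptor gene F2r. Of the other 5, Plek and Itga2b were tested and not called, Selp and Itgb3 were marked as outliers by the authors and carry no p-value, and Gp1bb lay under the authors' minimum mean of 10. At an adjusted p under 0.05, 3.96% of the 11503 genes tested in GMP were called, 1.75% higher and 2.22% lower. In MPP none of the 6 tested members was called, where 0.616% of 11859 tested genes were called, 0.346% higher and 0.27% lower. At an unadjusted p under 0.05, 4 of these 6 would pass in MPP, Itgb3, Itga2b and F2r above 0 and Pf4 below, as would 1153 of the 11859 tested genes. The members that were tested had passed a minimum mean, so their counts do not stand for the whole group.

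Mmrn1 (chromosome 6, 60924976 to 60989378, plus strand) encodes multimerin 1, a large alpha granule protein that carries factor V. Its mean was 51.2 normalized counts in GMP, and its fold change was 4.16-fold (95% interval 2.76 to 6.27), a log2 fold change of 2.06 (adjusted p = 1.57e-08, SE 0.302, 4 libraries against 4) in the authors' deposited DESeq2 table. No tested gene of GMP had a higher log2 fold change. In MPP, where its mean was 431, the log2 fold change was 0.59 (SE 0.355) and the gene was marked as an outlier.

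Vwf (chromosome 6, 125546774 to 125686679, plus strand) encodes von Willebrand factor, which tethers platelets to exposed collagen. In GMP it rose 2.02-fold (95% interval 1.53 to 2.67), with a log2 fold change of 1.01 (adjusted p = 0.000145, SE 0.206 in the authors' deposited DESeq2 table) at a mean of 66.9. At nearly the same mean in MPP, 63.3, the log2 fold change was 0.14 (adjusted p = 0.931, SE 0.288 in the authors' deposited DESeq2 table), with a 95% interval from -0.42 to 0.71.

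Pf4 (chromosome 5, 90772435 to 90773383, plus strand) encodes platelet factor 4, the CXC chemokine CXCL4. It rose 2.55-fold in GMP (95% interval 1.597 to 4.07), with a log2 fold change of 1.35 (adjusted p = 0.0062, SE 0.345 in the authors' deposited DESeq2 table) at a mean of 37.2. In MPP its mean was only 11.5 and its log2 fold change was -0.92 (adjusted p = 0.366, SE 0.384 in the authors' deposited DESeq2 table). Its 95% intervals were 0.68 to 2.03 in GMP and -1.67 to -0.17 in MPP, neither of them adjusted for the number of genes. With an empirical null, which widens the spread of the statistic to that seen over all tested genes, the adjusted p in GMP was 0.262 for Pf4 and 0.113 for F2r, so that 2 members remained called, Mmrn1 and Vwf.

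Selp (chromosome 1, 164115264 to 164150026, plus strand) encodes P-selectin, the adhesion molecule that alpha granules bring to the surface. Its values were 0.59 (SE 0.353) in MPP at a mean of 972.2 and 0.93 (SE 0.297) in GMP at a mean of 383, both as log2 fold changes in the authors' deposited tables and both marked as outliers. When genes so marked were given a p from their log2 fold change over its SE, Selp and Itgb3 passed in GMP (adjusted p = 0.0462 and 0.0449 by the normal test across all genes), and neither Selp nor Mmrn1 passed in MPP. Selp overlaps 2 noncoding genes on the opposite strand by 186 and 438 exonic bases, and whether reads were counted by strand is not given in the sources used here.

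Both chains of the fibrinogen receptor had values above 0 in both populations. Itga2b (chromosome 11, 102453297 to 102470122, minus strand) encodes integrin alpha-IIb, known as CD41. Its log2 fold change was 0.44 (adjusted p = 0.148, SE 0.143) in MPP and 0.11 (adjusted p = 0.725, SE 0.125) in GMP in the authors' deposited DESeq2 tables. Itgb3 (chromosome 11, 104608000 to 104670476, plus strand) encodes integrin beta-3, and its log2 fold change was 0.53 (adjusted p = 0.251, SE 0.192) in MPP and 0.55 (SE 0.176) in GMP in the authors' deposited DESeq2 tables. The value of Itgb3 in GMP was marked as an outlier and has no p-value. The means of Itga2b were 272 in MPP and 279 in GMP, those of Itgb3 262 and 356. At these levels the 95% interval of Itga2b was 0.16 to 0.72 in MPP and -0.13 to 0.36 in GMP, and that of Itgb3 in MPP was 0.15 to 0.90.

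Gp1bb (chromosome 16, 18620317 to 18622403, minus strand) encodes the beta chain of GPIb. With means of 2.79 in MPP and 5.10 in GMP it has no adjusted p-value, and its log2 fold changes were -0.06 (SE 0.324) and 0.38 (SE 0.322) in the authors' deposited tables. In addition, 1902 of its 2087 exonic bases are shared with Sept5 on the same strand in GENCODE M21, so that reads could be counted for either gene. Other chains of the same complex were somewhat more abundant. Gp1ba had means of 79.97 in MPP and 61.7 in GMP with log2 fold changes of 0.24 (SE 0.259) and 0.04 (SE 0.256), and Gp5 and Gp9 had means between 10.6 and 36.2, in the authors' deposited tables. None of these 3 chains was called in either population.

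F2r (chromosome 13, 95601803 to 95618487, minus strand) encodes PAR1, a receptor that thrombin activates by cleavage and that mouse platelets lack. It rose 1.61-fold in GMP (95% interval 1.31 to 1.99), with a log2 fold change of 0.69 (adjusted p = 0.000966, SE 0.155 in the authors' deposited DESeq2 table) at a mean of 343. In MPP, at a mean of 1022, the log2 fold change was 0.37 (adjusted p = 0.400, SE 0.163 in the authors' deposited DESeq2 table). F2rl2, which encodes PAR3, lies 78.4 kb from F2r on chromosome 13 (95696853 to 95702739, plus strand) and rose in GMP too, with a log2 fold change of 0.66 (adjusted p = 0.0386, SE 0.206), against 0.16 (adjusted p = 0.852, SE 0.193) in MPP, in the authors' deposited DESeq2 tables. Iqgap2, whose body lies 8.69 kb from F2r and spans F2rl2 without exonic overlap, was far more abundant, with a mean of 6791 in GMP. Its log2 fold change there was 0.06 (adjusted p = 0.621, SE 0.0513 in the authors' deposited DESeq2 table). The gene for PAR4, F2rl3, which signals in mouse platelets with PAR3 as its cofactor, was not called in either population (log2 fold change -0.42, SE 0.148, in MPP and 0.20, SE 0.170, in GMP in the authors' deposited tables).

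Plek (chromosome 11, 16971206 to 17052381, minus strand) encodes pleckstrin, the main protein kinase C substrate of platelets, which other leukocytes express as well. It was the most abundant member, with means of 3053 in MPP and 1452 in GMP. Its log2 fold change was -0.01 (adjusted p = 0.987, SE 0.128) in MPP and 0.30 (adjusted p = 0.0995, SE 0.112) in GMP in the authors' deposited DESeq2 tables. The 95% interval in GMP, 0.08 to 0.52, corresponds to 1.06-fold to 1.44-fold. Its exons overlap those of Cnrip1 on the opposite strand by 199 bases.

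**Figure D2:**
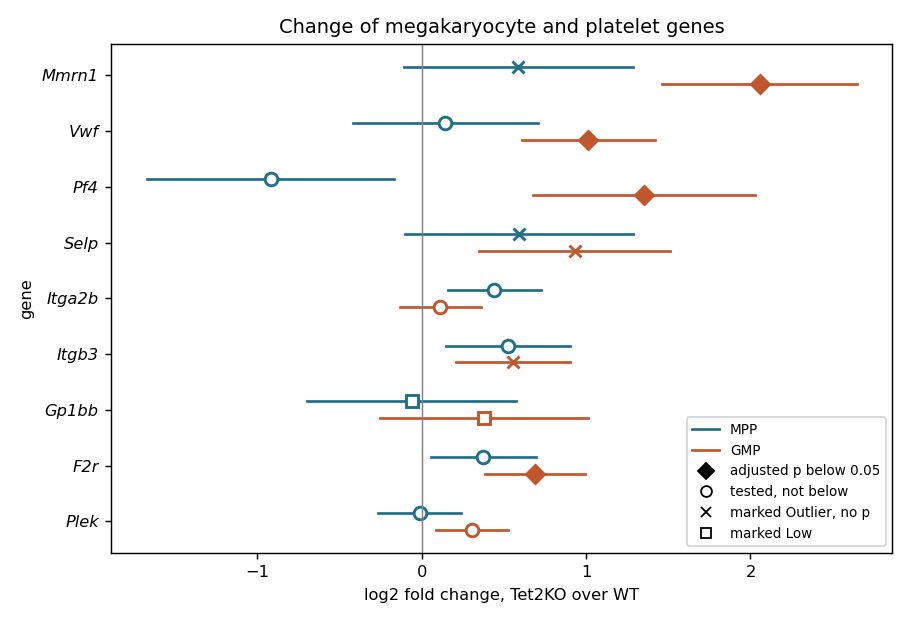
Log2 fold change of Tet2KO over WT for each gene in MPP and GMP, from the authors' deposited tables, with bars for the 95% interval (normal, from the SE) and marker shapes for the authors' status and the call. The 4 filled diamonds are Mmrn1, Vwf, Pf4 and F2r in GMP, and Pf4 is the gene whose bars lie on opposite sides of 0.

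Sequences before the start sites of Pf4 and F2r are shown because both genes rose in GMP and their starts differ in CpG content, the substrate of TET2 when methylated. RefSeq windows (GRCm38.p6) were matched for 7 of the 9 members. Vwf and Itgb3 had none, and the RefSeq start used for Mmrn1 lies 19.3 kb inside the gene as GENCODE M21 draws it, so its window is not shown. The RefSeq start of Plek also lies inside its GENCODE gene. The window of Gp1bb lies wholly in annotated exons, and 180 of the 250 bases of the Itga2b window do so too. Capitals mark matches, on either strand, to 6 short motifs: AGATAA and also TGATAA of GATA factors, CCGGAA and also AGGAAG of ETS factors, TGTGGT of RUNX factors and the E-box CACGTG. The Pf4 window is chr5:90772185-90772434, plus strand, and the F2r window is chr13:95618488-95618716, minus strand, without the 21 bases next to the start that GENCODE M21 counts as exon.
Pf4: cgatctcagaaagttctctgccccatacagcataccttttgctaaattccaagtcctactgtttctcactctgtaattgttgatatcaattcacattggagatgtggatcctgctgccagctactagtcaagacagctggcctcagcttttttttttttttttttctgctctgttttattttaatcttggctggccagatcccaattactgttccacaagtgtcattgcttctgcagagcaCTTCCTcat
F2r: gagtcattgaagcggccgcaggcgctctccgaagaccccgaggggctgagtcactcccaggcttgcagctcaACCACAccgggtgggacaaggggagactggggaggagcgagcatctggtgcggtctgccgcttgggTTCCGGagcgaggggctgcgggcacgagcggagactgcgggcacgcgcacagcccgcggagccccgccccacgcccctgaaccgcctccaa
The 250 bases before the start held 1 CpG in Pf4 and 24 in F2r, where the median of 32851 RefSeq promoters was 6. Mmrn1 and Selp had 3 each, Itga2b 2, Plek 4 and Gp1bb 7. The capitals in Pf4 are the reverse complement of AGGAAG, whose first base lies 9 bases before the start, and 29.5% of all promoter windows hold that motif on either strand. Those in F2r are the reverse complements of TGTGGT, 178 bases before the start, and of CCGGAA, 112 bases before it, held by 14.05% and 12.0% of all windows. Neither window held a GATA motif or the E-box. Of all windows 9.99% hold AGATAA, whereas 7.94% hold TGATAA and 6.02% hold the E-box. These matches are a description of letters, and binding or methylation there was not analysed here.

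The SEs of several of these genes were wide for their level, more of them in GMP than in MPP. Among the 500 genes nearest in mean with a mean of at least 10, 97.0% had a smaller SE than Mmrn1 in GMP, and the median SE of those neighbours was 0.237 against 0.302. For Selp the SE of 0.297 in GMP compared with a median of 0.110, and 99.8% of neighbours had a smaller one. Pf4 (98.4%), Itgb3 (97.4%), Plek (94.6%) and F2r (94.0%) were placed alike in GMP, so that 6 of the 8 members with a mean of at least 10 exceeded 90% of their neighbours. Vwf (39.8%) and Itga2b (53.6%) did not. In MPP the SEs of Mmrn1 (0.355), Selp (0.353) and F2r (0.163) exceeded 100%, 99.8% and 96.0% of their neighbours, whose median SEs were 0.139, 0.114 and 0.113. The other 5 did not exceed 90% of theirs, with Plek at 88.8%, Itgb3 at 83.4%, Vwf at 71.2%, Pf4 at 61.0% and Itga2b at 20.6%. For Pf4 this rank says little, because the median SE of its neighbours, 0.382, lay near the largest of any gene in MPP, 0.388. Of the members with a mean of at least 10, 2 of 8 were marked as outliers in each population, where 3.50% of all such genes were marked in MPP and 2.66% in GMP. As a rule DESeq2 withholds a p-value where a single library has an outsized pull on the fit, but which library that was in these genes cannot be told from the tables. The role of single mice in the values of Mmrn1, Selp and Itgb3 was not tested.

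**Figure D3:**
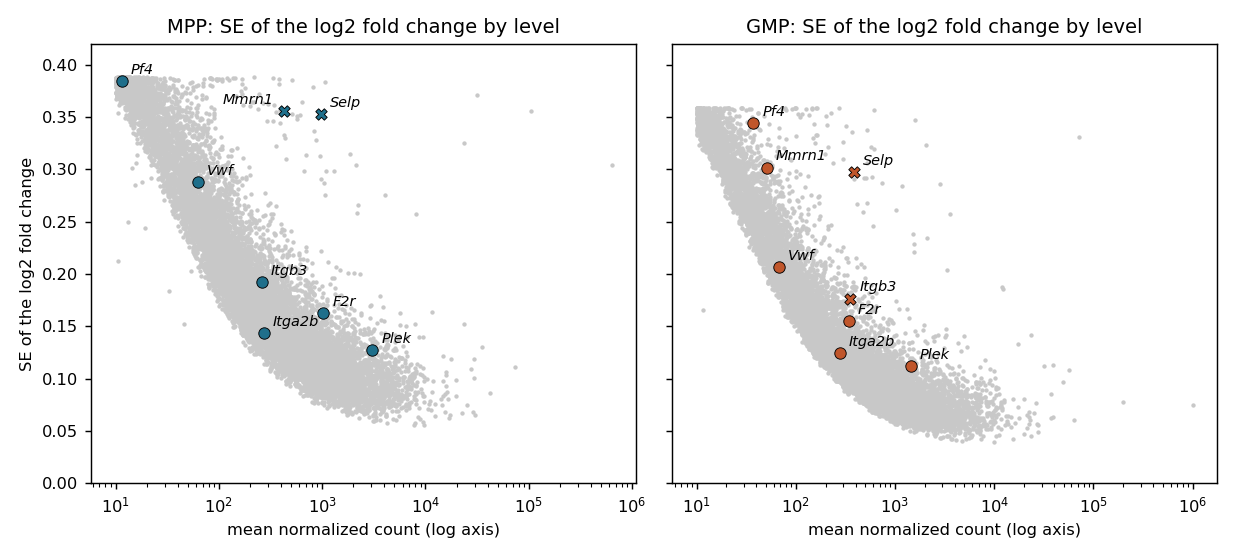
SE of the log2 fold change against the mean normalized count (log axis) for every gene with a mean of at least 10, in MPP and in GMP; grey dots are all genes, coloured circles the members and coloured crosses members marked as outliers. Selp lies far above the band of genes of like mean in both panels, Mmrn1 in MPP (0.355 against a neighbour median of 0.139), while Vwf and Itga2b lie within it.

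Among the members tested, Pf4 alone passed a test of whether its change differed between the populations. Its log2 fold change in GMP minus that in MPP was 2.27 (95% interval 1.26 to 3.28, adjusted p = 0.0276 by the normal test of the difference across all genes), where 0.0453% of 17660 genes passed the same test. The difference was 0.87 for Vwf (95% interval 0.18 to 1.56, adjusted p = 0.9999), 0.31 for F2r (-0.13 to 0.76), 0.32 for Plek (-0.02 to 0.65), -0.33 for Itga2b (-0.70 to 0.04) and 0.44 for Gp1bb (-0.46 to 1.33), none of which passed the normal test across all genes. For Mmrn1 the difference was 1.47 (95% interval 0.55 to 2.38), for Selp 0.34 (-0.57 to 1.24) and for Itgb3 0.03 (-0.48 to 0.54), without a test, because 1 or both values were marked as outliers. The test assumes independent errors, yet 3 mice per genotype gave both populations, and over all genes the statistics of both tables had a correlation of 0.346. With that correlation put into the test as one of errors, Pf4 was again the only member to pass. A correlation above 0 narrows the SE of a difference, and this one may also hold changes shared by both populations, so the true correlation of errors is unknown. The mean of Pf4 in MPP, 11.5, was close to the authors' minimum, and with a minimum mean of 50 in both tables Pf4 is not tested and no member passes. Its SEs, 0.384 in MPP and 0.345 in GMP, lay near the largest of any gene, 0.388 and 0.359. Such a ceiling comes with shrunken fold changes, so the interval and the adjusted p may not reflect the spread over mice.

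Genes of the wider platelet pathway were called in both directions. In GMP, 112 of 141 further genes from 8 lists of receptors, granule genes, signalling proteins and transcription factors were tested, and 7 were called higher and 6 lower, 11.6% in all, beside 3.96% of all tested genes. Their median log2 fold change was 0.04, beside 0.00 over all tested genes. In MPP 114 were tested, 3 were called higher and 2 lower, 4.39% in all, beside 0.616% of all tested genes, with a median of 0.05 beside -0.00 over all tested genes. The lists were written with earlier results of these tables known, so the shares are descriptions.

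Among surface receptors, no further adhesion gene was called. Of 16 such genes 13 were tested in MPP and 12 in GMP. The smallest p-values belonged to Itga5, the fibronectin receptor chain, in MPP (log2 fold change 0.30, SE 0.101) and to Fcer1g, the signalling chain paired with GPVI, in GMP (0.19, adjusted p = 0.315), with Jam3 next (0.43, adjusted p = 0.470), in the authors' deposited tables. Among receptors for soluble agonists, Ptgir, the prostacyclin receptor gene, fell in MPP by 1.49 on the log2 scale (adjusted p = 0.0140, SE 0.369) and had a value of -0.50 (SE 0.256) in GMP in the authors' deposited DESeq2 tables. F2rl2 was the only further receptor gene of that list called in GMP, among 7 tested.

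Granule cargo genes were called in both directions in GMP. Beside Mmrn1, Vwf and Pf4, which rose, the proteoglycan gene Srgn fell by 0.31 (adjusted p = 0.00796, SE 0.0815) and the angiopoietin gene Angpt1 by 0.30 (adjusted p = 0.00319, SE 0.0735) in GMP, on the log2 scale in the authors' deposited DESeq2 table. Both are abundant in these progenitors, with means of 7608 and 2175 in GMP, and are not restricted to the megakaryocyte lineage. Ppbp, whose gene lies in the same chemokine cluster as Pf4, was too low to be tested. Of 16 tested genes of granule formation 1 was called in GMP, Slc35d3, a dense granule gene, which rose by 1.35 (adjusted p = 0.000751, SE 0.299) at a mean of 19.96, and whose value in MPP was -0.08 (SE 0.272), in the authors' deposited DESeq2 tables. Nbeal2, Vps33b and Vipas39, needed to form alpha granules, had log2 fold changes of 0.07, 0.03 and 0.04 in GMP. No granule gene was called in MPP, where Rab27b (0.58, SE 0.257) and Stxbp2 (0.13, SE 0.094) had the smallest p-values among formation genes and Pf4 and Gas6 (-0.49, SE 0.370) among cargo genes.

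In signalling, 2 of 33 further tested genes rose in GMP and 1 fell. Sdpr, which encodes the caveolar protein cavin-2, rose by 1.69 (adjusted p = 6.17e-05, SE 0.328) at a mean of 30.9 and the cation channel gene Trpc6 by 1.06 (adjusted p = 0.0344, SE 0.325) at a mean of 16.7, while the actin regulator gene Wdr1 fell by 0.28 (adjusted p = 0.000143, SE 0.0574), on the log2 scale in the authors' deposited DESeq2 table. In MPP 1 of 32 was called, Mrvi1, a substrate of cGMP-dependent protein kinase, which fell by 1.35 (adjusted p = 0.0121, SE 0.329 in the authors' deposited DESeq2 table). The common integrin partners Fermt3, Tln1 and Rap1b had log2 fold changes of -0.10, -0.05 and -0.12 in GMP, none of them called. Ptgs1, which encodes cyclooxygenase 1 of the thromboxane pathway, fell in GMP by 0.48 (adjusted p = 0.000346, SE 0.102 in the authors' deposited DESeq2 table), 1 of 4 tested genes of that list. In MPP none of these 4 was called, Alox5ap (-0.19, SE 0.0927) and Tbxas1 (0.08, SE 0.144) having the smallest p-values.

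None of the 11 tested genes of thrombopoietin signalling was called in GMP, with Socs3 (0.75, SE 0.289) and Grb2 (-0.16, SE 0.0652) having the smallest p-values.

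Megakaryocyte transcription factors were called in both directions. The list is not restricted to that lineage, since it holds Gata2, which is counted below among mast cell and basophil genes too. In MPP 2 of 24 rose, Runx1 by 0.47 (SE 0.106) and Zbtb16 by 0.97 (SE 0.178), on the log2 scale in the authors' deposited table. Among 23 tested in GMP, 3 rose, among them Zbtb16 by 0.53 (SE 0.110) and Cbfa2t3 by 0.39 (SE 0.104), and 2 fell, Gata2 by 0.37 (SE 0.114) and Hoxa9 by 0.60 (SE 0.175), in the authors' deposited table. The erythro-megakaryocytic factor gene Gata1 was marked as an outlier in both populations, at log2 fold changes of -0.32 (SE 0.355) in MPP and -0.33 (SE 0.313) in GMP. Fli1 and Nfe2 had values of -0.01 and -0.13 in GMP, neither of them called.

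**Figure D4:**
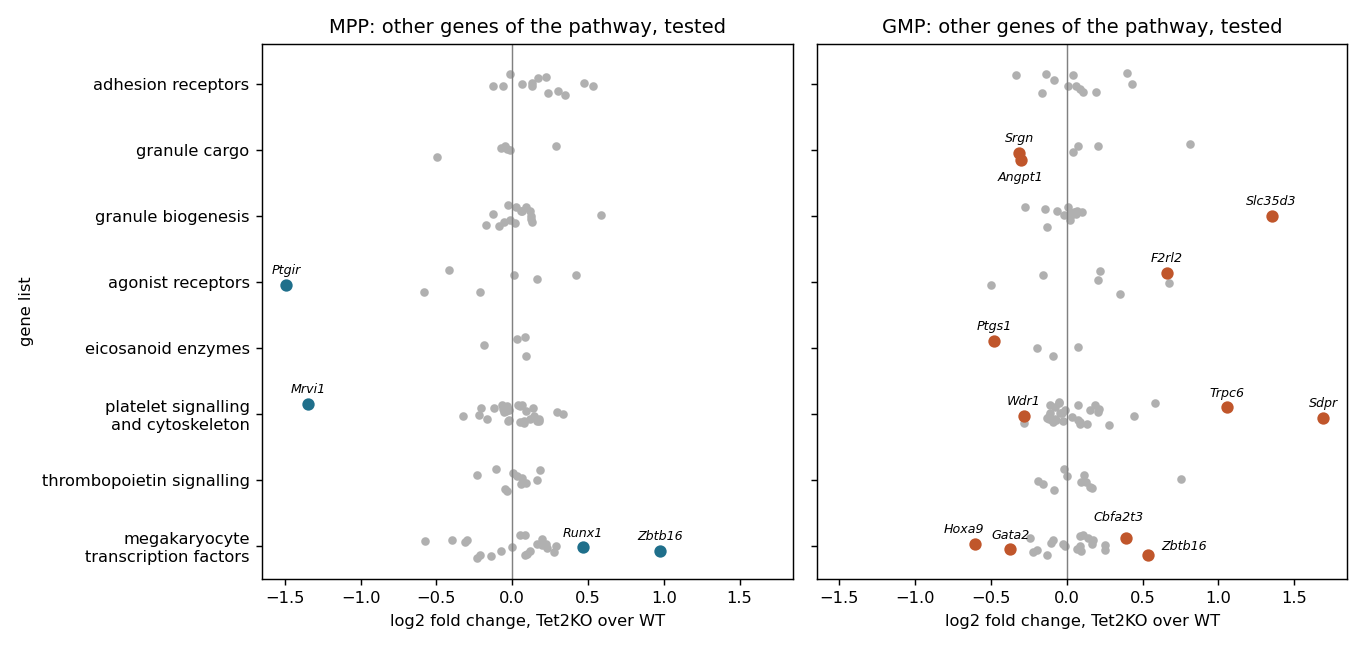
Log2 fold change of Tet2KO over WT of the tested genes reported here from 8 lists of platelet and megakaryocyte genes, without the 9 members, in MPP and GMP; each dot is a gene, coloured and named where the adjusted p of the authors' deposited table is under 0.05. Most dots lie near 0, and Sdpr (1.69), Slc35d3 (1.35) and Trpc6 (1.06) stand to the right in GMP.

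Markers of other cells that could share these transcripts were read in the same tables. Of 19 endothelial genes 10 were under the minimum mean in MPP and 12 in GMP, among them Cdh5 (means 3.04 and 1.10), Cldn5 (0.379 and 0.394) and Sox17 (0.132 and 0.247). Others were well above it, with means in MPP and GMP of 337 and 201 for Tie1, 269 and 135 for Tek, 249.7 and 18.7 for Robo4, 229.9 and 73.5 for Egfl7 and 181 and 28.7 for Emcn. The endothelial list summed to 151 ppm in MPP and 49.1 in GMP, and its most abundant gene in both was Tie1. In MPP Tie1 rose by 0.77 (adjusted p = 0.0138, SE 0.190 in the authors' deposited DESeq2 table), the only gene called of 8 tested. Of these 8, 5 lay above 0, with a median log2 fold change of 0.08, and Egfl7 stood at -0.61 (SE 0.240). In GMP 3 of 7 tested lay above 0, with a median of -0.01, and none was called. Stem cell markers summed to 1258 ppm in MPP and 229.8 in GMP. Of the 10 tested in GMP, 6 lay above 0, with a median log2 fold change of 0.17. The only one called there was Mecom, which fell, at -0.85 (adjusted p = 0.00684, SE 0.219 in the authors' deposited DESeq2 table). Slamf1, the gene of the CD150 surface marker that both gates exclude, had means of 26.7 and 3.77 and log2 fold changes of -0.44 (SE 0.364) and 0.10 (SE 0.299). No sorting marker gene was called in either population, among 7 tested in MPP and 6 in GMP, where Fcgr3 had the smallest p-value (-0.32, SE 0.143).

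Of 12 further genes known to be higher in stem cells of old mice, a list that also holds Vwf, Selp, Mmrn1 and Itgb3, Aldh1a1 rose in MPP by 0.81 (adjusted p = 0.0202, SE 0.206) and Sdpr rose in GMP, in the authors' deposited DESeq2 tables. The 6 that were tested in GMP all had values above 0, with a median of 0.43, as did 6 of 8 in MPP, with a median of 0.38. Over all tested genes 50.1% lay above 0 in GMP and 49.1% in MPP, with medians of 0.00 and -0.00. Of the 6 and of the 8, 1 each was called, beside 3.96% and 0.616% of all tested genes. The list was written with earlier results of these tables known, so the counts are descriptions. Erythroid genes share the early progenitors of the megakaryocyte lineage. Of 16 such genes 10 in MPP and 9 in GMP were marked as outliers, among them Klf1 and Epor, and the 9 so marked in GMP all lay below 0, with values of -0.35 (SE 0.294) for Klf1 and -0.09 (SE 0.298) for Epor in the authors' deposited table. The 2 erythroid genes tested in GMP lay above 0, Alas2 at 0.25 (SE 0.242) and Tfrc at 0.20 (SE 0.110), neither of them called, and 4 of the 10 marked in MPP lay above 0. Haemoglobin genes were at or near 0 in both tables, and are uncertain, since counting can split reads between their near-identical copies. Of the mast cell and basophil genes, which arise from related progenitors, Gata2 and Cma1 (-1.71, SE 0.338) fell in GMP in the authors' deposited table, and the 4 tested genes all lay below 0. Summed over each list, erythroid genes stood at 811 ppm in MPP and 676 in GMP, mast cell genes at 202 and 713, monocyte genes at 143 and 364, neutrophil genes at 26.4 and 82.0, and B cell genes at 270.5 and 20.9. Among genes of monocytes and macrophages, another source of Pf4, Csf1r (0.56), Ctss (0.67) and Cd68 (0.34) rose in GMP and Vcam1 (-1.24) fell, in the authors' deposited table. The neutrophil gene Mmp8 rose in GMP by 1.36 (SE 0.252) and the lymphoid gene Rag2 fell in MPP by 0.96 (SE 0.241), on the log2 scale in the authors' deposited tables. Of 11 neutrophil genes 7 were under the minimum mean in GMP and only 3 were tested. Cxcr2 (0.43, SE 0.170) and S100a8 (-0.42, SE 0.254) were not called there, and Lcn2 (-0.30, SE 0.274) was marked as an outlier. Mettl2, a neighbour of Itgb3, had a value of -0.35 (SE 0.128) in MPP and was not called. Summed levels per genotype cannot be had from these tables, and the part of other cell types in the values of the 9 genes was not tested.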

How the data were processed

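RNA from sorted mouse MPP and GMP, 4 libraries labelled WT and 4 labelled Tet2KO each, gave single-end 75 bp reads, per the labels' protocols. STAR, DESeq2 and the mm10 assembly are named in the submitters' processing notes, without versions. For the read counter, annotation and strand setting, nothing is given in the sources used here. For each gene the authors deposited, per population, a mean signal (normalized counts over its libraries), a log2 fold change (Tet2KO over WT), its SE, a p-value and an adjusted p-value. Depth per library is unknown. The deposited SEs reach at most 0.388 in MPP and 0.359 in GMP, a ceiling that shrunken fold changes give, so changes of low genes may be understated. The labels name individual mice as replicates.

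Genes were called across all genes at the authors' adjusted p of 0.05, computed over genes with status OK. The change in GMP minus that in MPP was tested as a normal statistic with Benjamini-Hochberg adjustment wherever both tables hold a p-value. The calculation of calls and of this test was run on simulated data, drawn with independent normal errors of the deposited SEs. Such draws build in the assumptions of the test, so they check the calculation only. Intervals are at 95%. Alternatives were other thresholds, recentring, an empirical null, a minimum mean of 50, genes marked as outliers included and, for the difference, correlated errors. Positions and exon lengths come from GENCODE M21, promoters from RefSeq (GRCm38.p6). The software was matplotlib 3.10.9, scipy 1.17.1, pandas 2.3.3, numpy 2.4.6 and Python 3.11.15. The members and lists were chosen with earlier results of these data known. Named genes are the 9 members and, of the wider lists, called genes or those of smallest p, with some marker lists given in brief. Genes named beyond that rule, such as Ppbp, Tubb1, Treml1, Gp6, Gp1ba, Gp5, Gp9, P2rx1, F2rl3, Iqgap2, Nbeal2, Vps33b, Vipas39, Fermt3, Tln1, Rap1b, Gata1, Fli1, Nfe2, Klf1, Epor, Cdh5, Cldn5, Sox17, Robo4, Egfl7, Emcn, Cxcr2, S100a8, Lcn2 and Slamf1, were chosen after their values were seen. Some genes of the lists enter the counts and are not reported here by name.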

Additional observations from a re-analysis of the deposited data

Results flagged for a closer look

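Pf4 was picked out because its changes in MPP and GMP differed when the difference was tested directly. Its log2 fold change in GMP minus that in MPP was 2.27 (95% interval 1.26 to 3.28), from a value of -0.92 in MPP, at a mean of 11.5, and 1.35 in GMP, at a mean of 37.2. The same test picked out Mrvi1, a gene of the platelet signalling list, with a difference of 2.29 (95% interval 1.33 to 3.24), from -1.35 in MPP and 0.94 in GMP, where its mean of 9.85 lay under the authors' minimum. Both are genes of low mean in at least 1 table. Their SEs in GMP, 0.345 for Pf4 and 0.359 for Mrvi1, lay near or at the largest of any gene there, 0.359.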

How the results depend on the processing

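No paired analysis was possible because the tables used here hold comparisons and no values per library, and for the same reason no library could be left out and no count test refitted. The number of members called in GMP was 4 and moved to 2 with an empirical null. The number of members whose change differed between the populations was 1 and moved to 0 with a minimum mean of 50 in both tables. At the other settings these counts, and the count of 0 in MPP, were within 1.5 times the reported ones. No member changed direction under any setting. For the changes by genotype, every setting but recentring reuses the same log2 fold changes, so their sign could not change. Recentring moved them only by the median over tested genes, -0.0038 in MPP and 0.0003 in GMP, so their direction was hardly put to a test. Low means limit Gp1bb in both populations and Pf4 in MPP.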
